A study of Mus musculus with 24 samples.

Results

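The genes described here are 8 that mark Schwann cells, the glia of peripheral nerve, and the myelin they make: Mbp, Pmp22, Prx, Mag, Egr2, Sox10, S100b and Ncmap. They were chosen by name, with earlier results of these data known. All 8 were found among the 55401 genes of the count table through the symbols paired with its Ensembl identifiers. Gastrocnemius, a calf muscle, was collected from male C57BL6 mice. They had been scalded on 25% of their skin surface, or handled as sham controls, 24 h before. Age and treatment together made 4 groups of 3 mice, called sham or burn, young or adult, and each mouse gave 1 mRNA and 1 miRNA library. At the time of injury the young animals had reached 5 weeks of age and the adults 11. The labels give no allele that differs between groups, and all mice had the same anaesthetic and analgesic. Burned mice also received resuscitation fluid, which sham mice did not, so burn and fluid cannot be told apart. The burn was on the back and belly, so the muscle lay away from the wound.

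Schwann cells wrap the axons of motor and sensory nerves, and the intramuscular nerve branches carry them into the muscle. A myelinating cell winds its membrane around 1 axon into a compact sheath, which speeds conduction, and it loses that program and becomes a repair cell when the axon is cut. The structural members make the sheath. Pmp22 is a membrane protein of compact myelin whose gene dosage is altered in inherited neuropathies, and it was first found as a growth arrest gene in fibroblasts. Mbp holds the cytoplasmic faces of the membrane together, and Ncmap is a small membrane protein of non-compact myelin. Prx, periaxin, links the Schwann cell membrane to its cytoskeleton and basal lamina, and Mag is an adhesion protein of the membrane next to the axon. Of the regulators, Sox10 is the transcription factor that all neural crest glia need, and Egr2 is the zinc finger factor that switches the myelin genes on. S100b is a calcium-binding protein used as a glial marker that fat cells also make.

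The mRNA libraries held 4392605 to 5688512 counted reads and the miRNA libraries 1704531 to 3149396. Young burn replicate 2 had the lowest agreement with its own group, a mean r of log2 CPM of 0.941 against 0.960 to 0.982 in the other libraries, and the study left it out of a figure on burn effects. The fits below used the 11 other mRNA libraries, and the outcome with all 12 is given beside the calls of members and of the genes named from other lists. Oligodendrocytes, the other cells that make Mbp, Mag and Sox10, were at or near 0, with 1 to 5 reads per group over 5 markers and with Mobp and Ermn at 0 in every library. The 9 axonal genes summed to 242 to 342 reads per group, and of these the neurofilament genes Nefl, Nefm and Nefh had 0 to 3 reads each.

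On a scale of CPM, the library-scaled read count with TMM factors, per kilobase of exon, Pmp22 stood far above the others at 42.9 ± 14.7 (SD, n = 12 libraries). Mbp followed at 3.46 ± 1.35, S100b at 2.66 ± 1.34, Ncmap at 1.44 ± 1.18 and Prx at 1.40 ± 0.535. Egr2 lay at 0.392 ± 0.212, Sox10 at 0.380 ± 0.119 and Mag at 0.210 ± 0.119. The steps from Pmp22 to Mbp, from Prx to Egr2 and from Sox10 to Mag exceeded the SD of both neighbours. The other neighbours in this order did not differ beyond their spread. Exon length here covers all annotated exons of a gene, 2354 bases for Pmp22 and 8469 for Mbp, whether or not muscle uses them. In CPM without division by length, Pmp22 averaged 101 and Mbp 29.3, and Prx at 7.80 stood above S100b at 3.95. Both regulators, Egr2 and Sox10, sat near the bottom with a few reads per library. A minimum of about 10 reads in enough libraries left 6 of the 8 genes for testing, and Mag and Sox10 did not pass it. Egr2 met this minimum only in young libraries and Ncmap mostly in them. Counts among the tested members therefore lean toward higher in young mice.

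The values by library show which mice carried the signal. Pmp22 read 158, 135 and 96.7 CPM in young sham, 167, 81.0 and 113 in young burn, 82.2, 83.1 and 76.3 in adult sham and 87.4, 68.8 and 63.5 in adult burn. Every young library except young burn replicate 2 was above every adult library. Mbp read 52.2, 40.6 and 24.5 CPM in young sham, 48.0, 16.9 and 21.8 in young burn, 22.9, 24.8 and 24.3 in adult sham and 30.4, 25.8 and 18.9 in adult burn. For Mbp the first replicate of young sham and of young burn and the second of young sham were high, young burn replicate 2 was below all others, and the remaining young mice lay within the adult range. Ncmap read 8.75, 4.24 and 4.62 CPM in young sham, 7.14, 2.73 and 2.44 in young burn, 1.24, 1.35 and 0.423 in adult sham and 3.84, 1.26 and 0.555 in adult burn. Its lowest young sham library was more than 3 times its highest adult sham library, and adult burn replicate 1 was the only adult mouse above the lowest young ones.

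Prx read 13.1, 6.26 and 4.37 CPM in young sham, 11.4, 4.55 and 10.6 in young burn, 9.89, 9.48 and 6.34 in adult sham and 7.35, 5.04 and 5.18 in adult burn. The young sham values of Prx spanned the whole adult range. S100b read 7.78, 3.63 and 6.56 CPM in young sham, 5.71, 2.0 and 5.50 in young burn, 4.33, 2.71 and 2.33 in adult sham and 2.51, 2.16 and 2.22 in adult burn. Adult burn was the tightest S100b group, and young burn replicate 2 lay below it. Egr2 read 2.43, 2.22 and 1.70 CPM in young sham, 2.32, 0.728 and 1.43 in young burn, 0.412, 1.58 and 1.06 in adult sham and 0.836, 0.540 and 0.740 in adult burn. The 3 young sham libraries of Egr2 were above all adult ones, the closest at 1.70 against 1.58 CPM from equal read counts.

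Young sham replicate 1 held the highest level of 5 of the 8 genes, namely Mbp, Prx, Egr2, S100b and Ncmap. Young burn replicate 1 was highest for Pmp22 and second for Mbp, Prx, Egr2 and Ncmap. Young burn replicate 2 was lowest for Mbp, Mag and S100b. Over all 12 libraries the group means of Pmp22, Egr2 and S100b stood in 1 order, both young groups above both adult groups and sham above burn at each age. In Mbp and Ncmap the adult groups traded places, in Mag young burn was the lowest group, and in Prx and Sox10 young sham was not the highest.

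**Figure D1:**
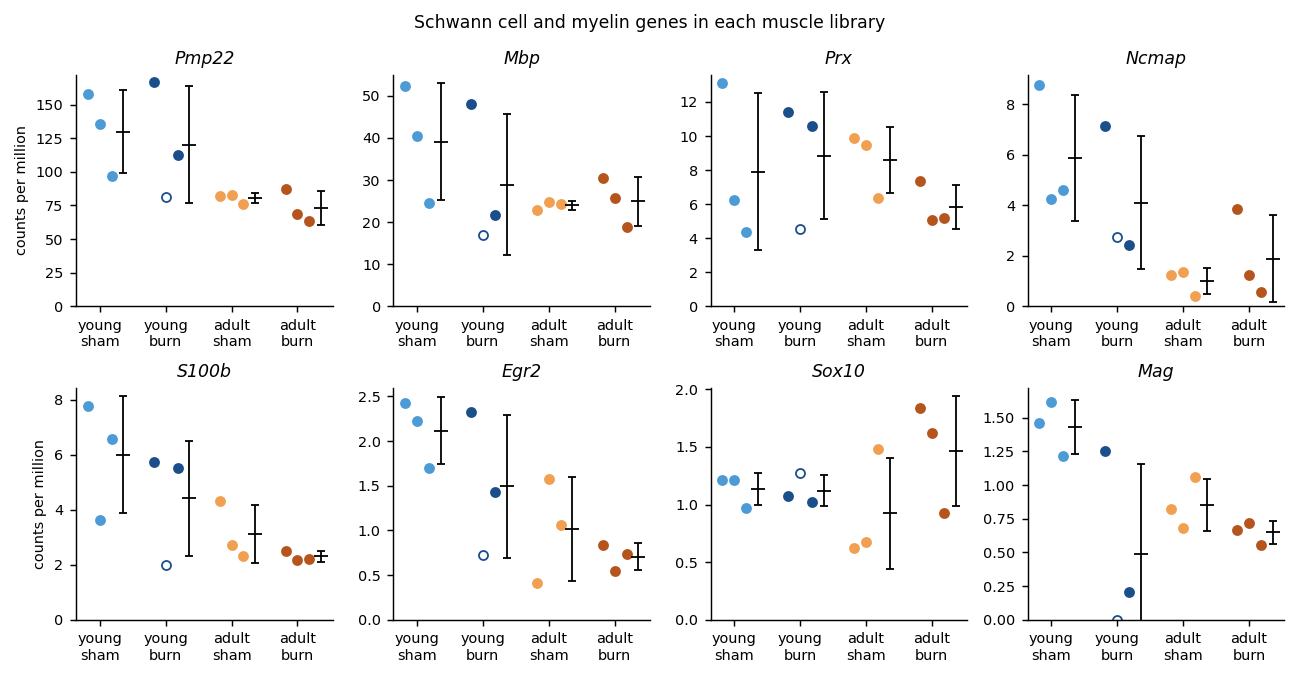
Level of each of the 8 genes in every mRNA library, in CPM with TMM scaling, each panel with its own axis from 0. Points are single mice, black bars and whiskers are the mean ± SD of a group of 3, and the hollow point is young burn replicate 2. Pmp22 lies at 96.7 to 158 in young sham and at 76.3 to 83.1 in adult sham, and the young groups spread more widely than the adult ones for Pmp22 and Mbp.

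The first comparison asked how the uninjured muscle of young mice differed from that of adults. Pmp22 and Ncmap were higher in young sham, and no member was lower. Pmp22 averaged 129.9 ± 30.9 CPM in young sham and 80.5 ± 3.70 in adult sham (SD, n = 3 each), and Ncmap averaged 5.87 ± 2.50 and 1.00 ± 0.507. In edgeR's quasi-likelihood test Pmp22 was 1.60-fold higher (95% interval 1.23 to 2.09), a log2 fold change of 0.68 ± 0.18 (SE) with an adjusted p of 0.0231. Ncmap was 5.66-fold higher (2.21 to 14.5), a log2 fold change of 2.50 ± 0.64 with an adjusted p of 0.0200 by the same test. These were 2 of 6 tested members, both higher, where 5.27% of all tested genes were called higher and 11.8% in either direction. Ncmap met the read minimum mostly through young libraries, which tilts this count.

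The other members did not pass the test in sham mice. The log2 fold change of young over adult was 1.05 ± 0.46 for Egr2 (edgeR adjusted p = 0.149), 0.90 ± 0.32 for S100b (0.0815), 0.70 ± 0.28 for Mbp (0.115) and −0.13 ± 0.32 for Prx (0.827). The young and adult sham values of Pmp22, Ncmap, Egr2 and Mag did not overlap, which makes 4 of 8 members, 3 of them tested. In Egr2 and in Mag the closest young and adult mice had equal read counts. They were parted only by the TMM factor, which was lowest in young sham replicate 3 at 0.825. Of all tested genes 15.7% were separated with young higher. With all 12 libraries in the fit neither call was kept by edgeR, though DESeq2 called Ncmap, with an edgeR adjusted p of 0.118 for Pmp22 and 0.0535 for Ncmap, while only 3.76% of all genes were called. The log2 fold changes were 0.69 and 2.51 there. Without any 1 of the adult sham mice or young sham replicate 1 the call of Ncmap was also lost, at log2 fold changes of 2.10 to 2.76. Pmp22 lost its call without the same mice or without young sham replicate 2, at 0.52 to 0.71.

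The upstream sequences of Pmp22 and Ncmap are shown because these 2 genes were the members called in sham mice. The Egr factors bind GC-rich boxes. The 250 bases before 1 annotated start of each gene (RefSeq, GRCm38.p6) were chr11:63131207-63131456 on the plus strand for Pmp22, the start with the most matches of 4 listed, and chr4:135398228-135398477 on the minus strand for Ncmap, likewise of 2. Capitals mark matches to GNGNGGGNG, the Egr box, on either strand. Pmp22 had 4 matches on the strand opposite to the gene and Ncmap had 5 on its own, and in each gene some matches overlap each other and others stand apart.
Pmp22: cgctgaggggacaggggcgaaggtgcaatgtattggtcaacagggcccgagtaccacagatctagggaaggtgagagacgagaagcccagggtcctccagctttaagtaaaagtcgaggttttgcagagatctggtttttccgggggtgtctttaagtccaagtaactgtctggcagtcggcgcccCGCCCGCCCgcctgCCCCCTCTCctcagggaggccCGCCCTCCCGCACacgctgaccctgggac
Ncmap: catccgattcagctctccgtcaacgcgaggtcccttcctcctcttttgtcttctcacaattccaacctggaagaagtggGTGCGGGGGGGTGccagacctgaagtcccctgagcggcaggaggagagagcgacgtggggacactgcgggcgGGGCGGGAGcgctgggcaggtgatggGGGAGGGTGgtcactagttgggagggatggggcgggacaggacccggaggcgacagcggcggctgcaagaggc

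The box is common. It was found in 35.8% of the 32851 promoter windows of the same length in the genome, and among the members also before starts of Prx, Mag and Egr2. That share is per window, whereas Pmp22 and Ncmap are shown at their start with the most matches. Some listed starts of Pmp22 and Egr2 had no match. The window of S100b held none. The Sox boxes ACAAAG and ACAATG were in 16.5% and 10.7% of all windows on either strand, and among the members only Mag had 1, an ACAAAG. A match is a string of letters, and the gene counts do not say which start was used. The windows of the other members were not analysed here.

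The second comparison asked the same of burned mice. It shares no library with the first, but both came from 1 fit with common scaling and a common estimate of spread. Pmp22 and S100b were higher in young burn than in adult burn. Pmp22 averaged 139.8 ± 38.4 CPM in the 2 young burn libraries of the fit and 73.2 ± 12.6 in adult burn (SD, n = 3). S100b averaged 5.61 ± 0.152 and 2.30 ± 0.185. Pmp22 was 1.92-fold higher (1.44 to 2.55), a log2 fold change of 0.94 ± 0.19 with an edgeR adjusted p of 0.00450. S100b was 2.43-fold higher (1.44 to 4.10), at 1.28 ± 0.35 and an edgeR adjusted p of 0.0199. Again 2 of 6 tested members were called, both higher, against 11.2% of all tested genes called higher and 20.7% in either direction.

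The log2 fold change in burned mice was 1.39 ± 0.51 for Egr2 (edgeR adjusted p = 0.0661), 0.91 ± 0.34 for Prx (0.0695), 1.33 ± 0.59 for Ncmap (0.120) and 0.49 ± 0.30 for Mbp (0.250). Young and adult values of Pmp22, Prx, Egr2 and S100b did not overlap in the 11 libraries, 4 of 8 members against 26.6% of all tested genes with young higher. With young burn replicate 2 added, young burn averaged 120.2 ± 43.5 CPM for Pmp22 and 4.41 ± 2.08 for S100b. No member was separated in either direction, where 15.7% of all tested genes were separated with young higher. None was called by edgeR, while DESeq2 called Pmp22. The log2 fold changes were then 0.71 for Pmp22 (edgeR adjusted p = 0.0665) and 0.92 for S100b (0.159), with 10.8% of all genes called. Pmp22 also lost its call without young burn replicate 1, at 0.62 and an edgeR adjusted p of 0.102. S100b lost its call without adult burn replicate 2 or 3 or without either young burn library, at 1.24 to 1.30. Without adult burn replicate 1, the highest adult mouse for Ncmap, that gene was called at 2.40 with an edgeR adjusted p of 0.0185. Prx was called without young sham replicate 1, at 0.91 (edgeR adjusted p = 0.0200), without young sham replicate 3, at 0.90 (0.0449), with only the groups compared in the fit (0.0206) and without the filter on low counts (0.00807).

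Averaged over sham and burned mice, 5 of the 6 tested members were higher in young muscle. Pmp22 was 1.75-fold higher (1.44 to 2.13, edgeR adjusted p = 0.000448), S100b 2.13-fold (1.50 to 3.03, 0.00333) and Ncmap 3.77-fold (1.98 to 7.19, 0.00432). Egr2 was 2.34-fold higher (1.40 to 3.88, 0.0143) and Mbp 1.51-fold (1.12 to 2.04, 0.0367). Prx did not pass, at a log2 fold change of 0.39 ± 0.23 and an adjusted p of 0.222. Of all tested genes 16.0% were called higher in young mice in this comparison and 31.6% in either direction. Egr2 met the read minimum only through young libraries and Ncmap mostly so, which tilts the count of members toward young mice. Without the filter on low counts the same 5 members were called, and Mag and Sox10 were not. With 12 libraries 3 members were called, against 10.9% of all genes called higher: Ncmap at a log2 fold change of 1.80 (edgeR adjusted p = 0.0134), S100b at 0.92 (0.0375) and Pmp22 at 0.70 (0.0106). DESeq2 gave the same 5 members on 11 libraries and the same 3 on 12, with 25.7% and 19.7% of all genes called in either direction.

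The age difference of the members rested in part on single mice. Pmp22 and S100b were called over both treatments in each of 18 alternative fits. Without young burn replicate 1, Ncmap was at 1.42 on the log2 scale with an edgeR adjusted p of 0.0680, Egr2 at 1.02 (0.107) and Mbp at 0.25, and none of these 3 was called. Egr2 was also not called with all 12 libraries, at 1.06 and 0.0522, and Mbp was not called in 11 of the 18 fits. Among these were the fits without adult burn replicate 2 or 3, any adult sham mouse, or young sham replicate 1 or 2, where Mbp was at 0.47 to 0.61.

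**Figure D2:**
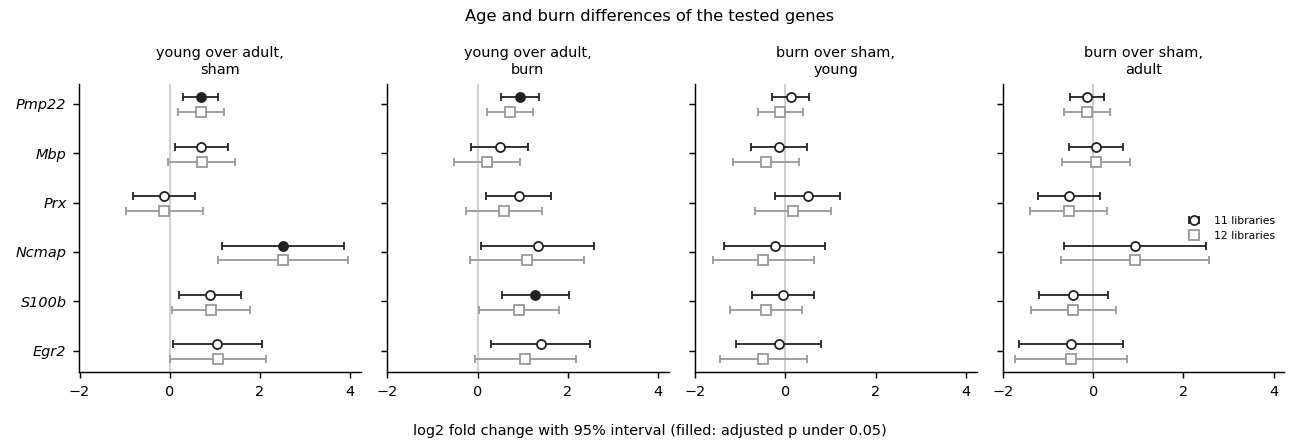
Log2 fold change of the 6 tested members with its 95% interval in 4 comparisons, young over adult and burn over sham. Black circles come from 11 libraries and grey squares from all 12, and filled symbols have an edgeR adjusted p under 0.05. In the age comparisons nearly all symbols lie right of 0, with Pmp22 at 0.68 in sham and 0.94 in burn, whereas in the burn comparisons every interval crosses 0.

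Mag and Sox10 were too low for the test. Mag gave 6, 8 and 5 reads in young sham, 7, 0 and 1 in young burn, 4, 3 and 5 in adult sham and 4, 4 and 3 in adult burn. Young burn was the uneven group, with nearly all its reads in replicate 1. On the CPM scale young sham was above adult sham in every mouse, though replicate 3 of each had 5 reads. The ratio of summed reads at equal depth, young sham over adult sham, was 1.68 with an exact 95% counting interval of 0.775 to 3.80. For young burn over young sham it was 0.528 (0.200 to 1.26) without young burn replicate 2 and 0.347 (0.131 to 0.830) with it. Such intervals cover counting error only, not the spread between mice.

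Sox10 gave 5, 6 and 4 reads in young sham, 6, 7 and 5 in young burn, 3, 3 and 7 in adult sham and 11, 9 and 5 in adult burn. Its groups overlapped in every comparison. The ratio of young to adult was 1.23 in sham (0.544 to 2.80) and 0.709 in burn (0.315 to 1.49). Sox10 was thus the member whose CPM was highest in adult burn, at 1.46 ± 0.477 (SD, n = 3), and no age or burn difference in it was detectable at this depth.

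The burn comparisons asked whether the injury had reached the nerve genes of a distant muscle within 24 h. No member was called in adults, in young mice or over both ages by edgeR, and none had an unadjusted p under 0.05 in these 3 comparisons. Of all tested genes 13.7%, 16% and 18.2% had such a p. DESeq2 called none either, with an adjusted p of NA for 4 of the 6 in adults and for 3 in young mice, and with 3.12%, 1.93% and 3.47% of all genes called in adults, in young mice and over both ages. Burn changed few genes in all, with 0.909% of tested genes called in adults, 0.664% in young mice and 2.81% over both ages, so 0 of 6 is near that background. With all 12 libraries edgeR again called no member at either age, and 0.00806% and 0.0645% of all genes.

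The intervals show what the burn data could have missed. The log2 fold change of burn over sham was −0.14 ± 0.18 for Pmp22 in adults, with a 95% interval of −0.52 to 0.25, and 0.12 ± 0.19 in young mice, with −0.29 to 0.53. For Mbp it was 0.06 ± 0.28 in adults (−0.54 to 0.66) and −0.14 ± 0.30 in young mice (−0.77 to 0.49). In the fit of 11 libraries Pmp22 and Mbp were thus bounded within about 1 log2 unit either way. The values of the low members were looser, with 0.93 ± 0.74 and −0.24 ± 0.53 for Ncmap, −0.49 ± 0.54 and −0.15 ± 0.44 for Egr2, and −0.44 ± 0.36 and −0.06 ± 0.32 for S100b in adults and in young mice. No member had burn and sham values that did not overlap, at either age, where 10.1% of genes were separated with burn higher and 9.78% with burn lower in adults, and 16.7% and 15.8% in young mice. With young burn replicate 2 added, the 6 tested members had a median burn value in young mice of −0.43, against −0.10 without it. Of the 6, 1 was above 0 with it and 2 without. The ratio of summed Mbp reads, young burn over young sham, was 0.747 with it (0.658 to 0.848) and 0.912 without (0.797 to 1.04). These ratio intervals cover counting error only.

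The burn values of Prx, Pmp22, Mbp and Ncmap had opposite signs by age, and Prx was the only tested member with an unadjusted p under 0.05 for the difference of the burn effects. Such a p was found in 11.1% of all tested genes. The burn effects of Prx were as follows. Its log2 fold change was −0.54 ± 0.32 in adults (edgeR adjusted p = 0.483) and 0.50 ± 0.34 in young mice (0.502). The difference of these effects was 1.04 ± 0.47, with an unadjusted p of 0.0415 and an adjusted p of 0.431 in edgeR, so it was not called, and neither was any other member (0.0949% of all genes were). The difference for Ncmap was larger in size and less precise, at −1.17 ± 0.91 (edgeR adjusted p = 0.654). Prx shares 300 of its 5579 exon bases with an antisense gene, Gm15541, and without knowing how strand was counted those reads cannot be told apart. The other 7 members share no exon base with another annotated gene.

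The members moved together within groups only in part. After subtraction of the group means, log2 CPM of Pmp22 and Mbp correlated with r = 0.960 and rho = 0.945 over the 11 libraries, and with 0.964 and 0.923 over 12. Pmp22 tracked Ncmap at r = 0.787 and Prx at 0.767. S100b did not follow, with r = 0.0395 against Mbp and −0.396 against Egr2, the latter 0.227 with young burn replicate 2. These are descriptions without a test, since the members share libraries, and the first replicates of both young groups carry much of the spread. In bulk muscle, fewer Schwann cells in a sample and less RNA per cell cannot be told apart, nor can a longer stretch of nerve caught in the dissected piece.

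Among the 8 genes outside the members whose levels were most like their mean z-score were Sox8, a relative of Sox10, with r = 0.919 and rho = 0.936 over 11 libraries, and Mal, a lipid raft protein of myelin, with r = 0.915 and rho = 0.955. They also held 1110059E24Rik at r = 0.927, Lyplal1 at 0.918, Abi1 at 0.912, Pi15 at 0.905 and Casc4 at 0.903. On the residuals from the group means Tcaim was nearest at 0.957, then Ccdc85c and Cdh19 at 0.946, the last a cadherin of Schwann cell precursors. With 12 libraries 1110059E24Rik, Mal and Lyplal1 stayed among the nearest 8 by level and Sox8, Abi1, Pi15 and Casc4 did not, while on the residuals Ccdc85c was nearest at 0.970 and Tcaim and Cdh19 were not among the nearest 8. The rankings are descriptions over 11 libraries among 12651 genes, and the libraries are shared by all of them.

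**Figure D3:**
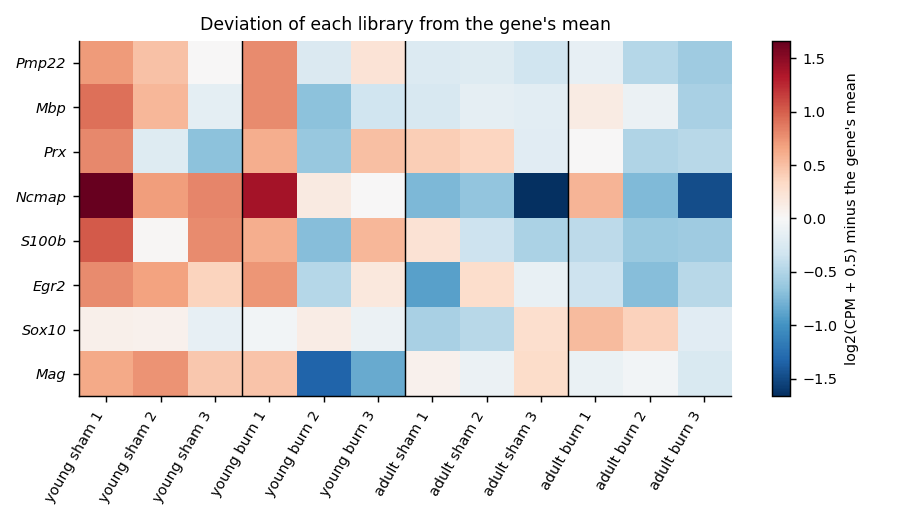
Log2(CPM + 0.5) of the 8 members in each mRNA library, shown as the difference from the gene's mean over the 12 libraries. Columns are single mice by group. The first young sham and young burn mice are above the mean in most rows, and young burn replicate 2, with 0 reads of Mag, is below it in all but Ncmap and Sox10.

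Most of the other myelin genes tested were also higher in young muscle. Of 15 listed, 9 were tested, and over both treatments 7 were higher in young muscle and none lower, with a median log2 fold change of 1.00 against 0.95 for the tested members and 0.01 for all genes. Of all tested genes 16.0% were called higher. Low genes of this and the following lists can also meet the read minimum through young libraries alone. That would tilt their counts toward young mice, and it was not tested. Ugt8a, which makes the galactolipids of myelin, was 1.45 ± 0.40 higher on the log2 scale (edgeR adjusted p = 0.0134), Gjc3, a glial connexin, 1.27 ± 0.42 (0.0300), and Mal 1.07 ± 0.24 (0.00434). With 12 libraries 5 of the 9 were called, against 10.9% of all genes called higher. Mal was at an edgeR adjusted p of 0.0144 and Gjc3 at 0.0344, while Ugt8a lost its call (0.0672).

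In sham mice edgeR called 2 of the 9, both higher in young mice, against 5.27% of all genes. In burned mice 4 were called, all higher, against 11.2% of all genes, among them Mal at 1.30 ± 0.37 (edgeR adjusted p = 0.0225) and Cnp, a myelin phosphodiesterase, at 0.82 ± 0.20 (0.0114). With 12 libraries edgeR called 0 of the 9 at either treatment, with 3 in sham and 6 in burn at an unadjusted p under 0.05. Of all tested genes 20.2% in sham and 28.4% in burn had an unadjusted p that low. Mal and Cnp in burn were at edgeR adjusted p values of 0.0622 and 0.0671. DESeq2 on 12 libraries called 0 in sham and 2 in burn.

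Of 18 genes of Schwann cell identity, 13 were tested, and over both treatments 4 were higher in young mice and 1 lower, with a median of 0.32. These 5 of 13 stand against 31.6% of all genes called in either direction, and with 12 libraries 3 were higher and 1 lower. Col28a1, a collagen of the Schwann cell surface, was at 1.87 ± 0.37 (edgeR adjusted p = 0.00170), Ngfr, the low-affinity neurotrophin receptor, at 1.05 ± 0.39 (0.0487), and Matn2, a matrilin of peripheral nerve, at 1.04 ± 0.18 (0.000586). Plekhb1 was lower at −0.76 ± 0.09 (4.09e-05). Of the 14 genes of the repair state, 5 were tested, and Gap43, a growth cone protein, at 1.45 ± 0.31 (0.00259) and Ngfr were higher in young mice. Of all tested genes 16.0% were called higher there. In sham mice alone Col28a1 and Gap43 were higher, at 1.83 ± 0.56 (0.0454) and 1.82 ± 0.37 (0.00620), and Plekhb1 was lower at −0.56 ± 0.12 (0.00904). In burned mice Col28a1, at 1.92 ± 0.49, and Matn2, at 1.45 ± 0.26, were higher and Plekhb1 was lower, while no repair gene was called by edgeR. With 12 libraries Ngfr lost its call over both treatments (edgeR adjusted p = 0.0525) and Col28a1 its call in sham mice (0.0879), and the other calls of genes named here were kept.

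Of 8 partners of Egr2 and parts of the neuregulin signal that tells Schwann cells how much myelin to make, 7 were tested, with 4 higher and 2 lower in young mice and a median of 0.30. These and the next counts, over both treatments, stand beside 16.0% of all tested genes called higher and 15.6% called lower. The receptor chains Erbb3, at 0.58 ± 0.20 (edgeR adjusted p = 0.0340), and Erbb2, at 0.49 ± 0.16 (0.0275), and the Egr corepressor Nab1, at 0.31 ± 0.11 (0.0370), were higher, and Rxrg, a retinoid receptor that muscle also makes, was lower at −0.56 ± 0.16 (0.0139). Only 3 of 9 axonal genes were tested, and Prph, the intermediate filament of peripheral neurons, was higher at 1.21 ± 0.39 (0.0280). Of 7 perineurial and endoneurial genes 2 were higher, Cldn1 at 0.68 (0.0178) and Etv1 at 0.59 (0.0117). With 12 libraries Erbb3, Rxrg and Cldn1 kept their calls (edgeR adjusted p = 0.0208, 0.0452 and 0.0269), and Erbb2 (0.0905), Nab1 (0.131), Prph (0.0914) and Etv1 (0.0809) did not. Of 15 tested genes of cholesterol synthesis, on which myelin growth depends, 3 were lower in young mice with 11 and with 12 libraries, near the 15.6% of all genes called lower with 11, among them Idi1 at −1.24 (0.0115) and Fdft1 at −0.70 (0.000811). Of the 15 genes, 4 had a log2 fold change above 0.

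Burn was compared with sham for the same 7 lists, with 57 genes tested. EdgeR called none of them at either age, with 4 of 57 at an unadjusted p under 0.05 in adults and 10 in young mice. Of all tested genes 13.7% in adults and 16% in young mice had an unadjusted p that low. Of the 5 tested repair genes 4 had such an edgeR p in young mice, and they differed in sign. By DESeq2 Tnc was at −1.40, Gap43 at −1.35, Bdnf at 0.98 and Ngfr at 1.10, with only Tnc and Gap43 under 0.05 unadjusted. DESeq2 called 1, Tnc in young mice (adjusted p = 0.0161), and gave an adjusted p of NA for 43 of the 57 in adults and 23 in young mice. Tnc, a tenascin of the repair list that tendon and fibroblasts also make, was at −0.07 ± 0.30 in adults and −1.40 ± 0.34 in young mice (edgeR adjusted p = 0.947 and 0.0733), and Jun, the factor that drives the repair state, at 0.33 ± 0.23 (0.555) and 0.44 ± 0.25 (0.413). Of the myelin genes with the highest level, Cnp was at −0.18 ± 0.19 in adults and 0.41 ± 0.20 in young mice. The list medians in adults and in young mice were −0.24 and 0.03 for other myelin genes, −0.08 and −0.10 for identity, 0.33 and 0.44 for repair, and −0.29 and −0.10 for the tested members. In the remaining lists the genes with the highest level were Art3 and Plekhb1, Yy1 and Rxrg, Stmn2 and Uchl1, Slc2a1 and Etv1, and Fdft1 and Hmgcs1. Their burn differences ran from −0.51 for Uchl1 to 0.44 for Stmn2 in adults and from −0.65 for Rxrg to 0.41 for Uchl1 in young mice.

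**Figure D4:**
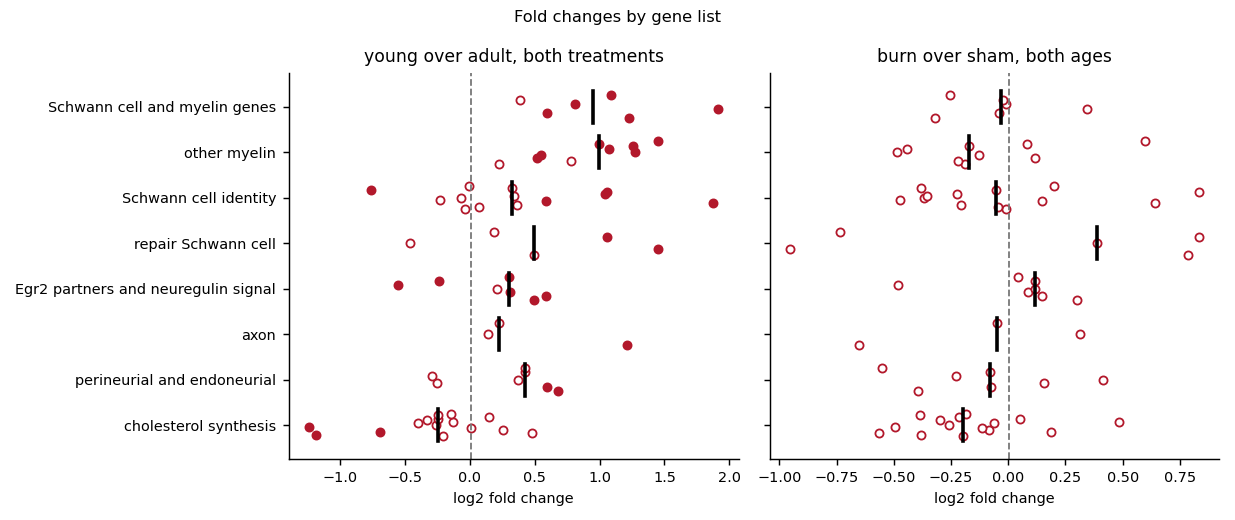
Log2 fold change of every tested gene of 8 lists, 1 point per gene, in the age and burn comparisons from 11 libraries. Filled points have an edgeR adjusted p under 0.05, the black bar is the list's median, and the dashed line is the median of all genes. Averaged over both treatments, the medians of the members, at 0.95, and of the other myelin genes, at 1.00, lie well above the line, whereas cholesterol synthesis lies below it at −0.24.

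Some markers of other cell types also differed by age, and their part in the members' differences was not tested. The summed level of 6 fibroblast genes was 6022 to 6390 CPM in young sham, 5808 to 7390 in young burn, 2525 to 3372 in adult sham and 2592 to 3407 in adult burn, with 4 of 6 genes called higher in young mice over both treatments. The median log2 fold change of the 6 was 0.67 over both treatments and 0.48 in sham mice, so the sum does not show the change of a typical gene of the list. Fibroblasts are a known source of Pmp22. The 8 adipocyte genes summed to 4044 to 5551 CPM in young sham and 1571 to 2980 in young burn, against 2195 to 3081 and 2138 to 2977 in adult sham and adult burn, with 1 of 8 called higher and a median log2 fold change of −0.93. The called gene was Car3, a carbonic anhydrase that muscle fibres also make, at 0.59 (edgeR adjusted p = 0.000978). The other 7 had log2 fold changes below 0 and were not called. Without Car3 the sum was 23.6 to 110.4 CPM in young sham, 56.8 to 135.0 in young burn, 14.7 to 328.7 in adult sham and 52.8 to 328.7 in adult burn. The 5 genes of melanocytes, pigment cells that also use Sox10, had 23 reads in each young group and 4 and 5 in the adult ones. Over both treatments endothelium had 4 of 6 genes higher in young mice, macrophages 4 of 9, tendon 2 of 8 and muscle fibre 3 of 7 with 1 lower, beside 16.0% of all genes called higher. In sham mice alone the counts higher were 1 for endothelium, 0 for macrophages, 2 for tendon and 1 for muscle fibre with 1 lower. In burned mice they were 4, 6, 0 and 3 with 1 lower. Of all genes 5.27% in sham and 11.2% in burn were called higher. With 12 libraries the counts higher over both treatments were 4 for fibroblasts, 3 for endothelium, 2 for macrophages, 2 for tendon and 1 for muscle fibre with 1 lower. These stand beside 10.9% of all genes called higher, and Car3 was not called (edgeR adjusted p = 0.0650). None of the 5 T cell genes was tested, and their sum stayed at or under 3.84 CPM.

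MicroRNAs are short RNAs that pair with messages through bases 2 to 8, the seed, and lower their use. Among those with a reported part in glia or on a member is the miR-29 family, which has been reported to bind Pmp22, and it is shown because its entries had the largest age differences on that list. The mature 3p sequences (RefSeq, GRCm38.p6, seed in capitals) lie at chr6:31062673-31062694 on the minus strand for miR-29a, at chr1:195037091-195037113 on the plus strand and chr6:31063025-31063047 on the minus strand for the copies of miR-29b, and at chr1:195037600-195037621 on the plus strand for miR-29c. They share the seed.
miR-29a-3p: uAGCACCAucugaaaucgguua
miR-29b-3p: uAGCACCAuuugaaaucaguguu
miR-29c-3p: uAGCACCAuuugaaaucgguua
The letters TGGTGCT, which pair with this seed, occur in the longest annotated 3′ UTR of 1 of the 8 members, Pmp22, at its bases 686 to 692 of 1132, chr11:63159089-63159116 on the plus strand (GRCm38) with the flanks printed here and the match in capitals.
Pmp22 site: caatctgtgaaaTGGTGCTatagattta
Such a match is a description. It was present in 2736 of 20933 genes, or 13.1%.

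The miR-29 entries were low in young muscle and high in adult muscle. Mir-29a read 788, 905 and 759 CPM in young sham, 767, 852 and 798 in young burn, 3602, 3734 and 3239 in adult sham and 3137, 3497 and 3334 in adult burn. Every young library was below every adult library, and burn and sham overlapped at both ages. The log2 fold change of young over adult was −2.11 ± 0.11 in sham (edgeR adjusted p = 1.66e-10) and −2.04 ± 0.11 in burn (2.64e-10). Both entries of mir-29b were lower, at −1.74 ± 0.19 and −1.66 ± 0.18 in sham (3.87e-07 and 2.40e-07) and −1.94 ± 0.18 and −1.98 ± 0.17 in burn (5.04e-08 and 1.58e-08). Mir-29c was lower at −1.63 ± 0.16 in sham (1.15e-07) and −1.51 ± 0.16 in burn (2.38e-07). The table names hairpins without the arm, and the copies of mir-29b give the same mature strand, so how reads were divided between them is uncertain.

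Of 15 entries on the list of nerve miRNAs 12 were tested among 299. In sham mice 6 were lower in young mice and none higher, where 25.4% of all entries were lower and 56.2% changed in either direction. Beside the miR-29 family these were mir-34a at −0.84 ± 0.24 (edgeR adjusted p = 0.00583) and mir-204 at −0.51 ± 0.16 (0.0110). In burned mice 4 were lower, the miR-29 entries, against 25.4% of all, with 55.2% changed in either direction. The median of the 12 was −0.28 in sham and −0.16 in burn, with 0.02 and −0.04 for all entries. Scaling by library size alone gave a median of all entries of 0.52 in sham, and left mir-29a at −1.59, mir-34a uncalled at −0.34 and mir-204 at 0.0059, so the last 2 depend on the scaling.

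No nerve miRNA was called for burn at either age or for the difference of the burn effects in edgeR, with 0 of 12 in adults, 4 of 12 in young mice and 1 of 12 for the difference at an unadjusted p under 0.05. DESeq2 called none, with 0, 3 and 1 at the unadjusted level. Of all 299 entries edgeR called none for these comparisons (0.0%), though 23, 37 and 36 had an unadjusted p under 0.05. By DESeq2 the calls were 1, 0 and 2. Mir-204 was the nerve entry with an unadjusted p under 0.05 for the difference, with 51.8, 51.0 and 59.8 CPM in young sham, 68.5, 86.6 and 67.0 in young burn, 70.2, 76.6 and 83.7 in adult sham and 66.5, 75.8 and 84.7 in adult burn. Young sham was the low group, and its values were below those of all other libraries. The log2 fold change for burn was 0.46 ± 0.16 in young mice (edgeR adjusted p = 0.266) and −0.02 ± 0.15 in adults (0.958).

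**Figure D5:**
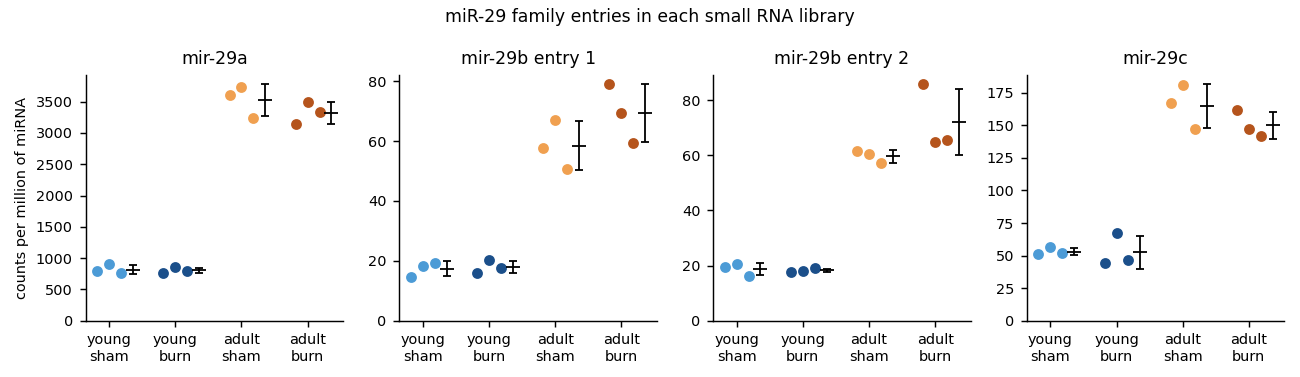
Level of the miR-29 entries in each miRNA library, in CPM with TMM scaling, with the axis of each panel starting at 0. Points are single mice and black bars the mean ± SD of 3. Mir-29a lies at 759 to 905 in young mice of the sham group and at 3239 to 3734 in adult sham mice, and burn and sham mice of 1 age lie side by side.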

How the data were processed

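RNA of 12 gastrocnemius samples was sequenced as poly-A selected mRNA and as small RNA. The authors deposited raw counts per gene and per miRNA hairpin, and the counts were used as deposited. Per the labels and the study's methods, reads were demultiplexed with bcl2fastq 2.20 and aligned with STAR 2.7.5c to GRCm38, and the submitters' processing notes also name featureCounts 2.0.1. Strand use in counting was not stated. Groups and replicate numbers came from the labels. The design text gives ages of 4 and 10 weeks and the study 5 and 11 at the burn.

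Genes were tested with edgeR 4.0.16 (R 4.3.3): TMM scaling, filterByExpr (minimum count 10, minimum total 15), 1 mean per group, a two-sided quasi-likelihood test and Benjamini-Hochberg adjustment over the 12651 genes tested (12408 with 12 libraries, 299 miRNA entries), called under 0.05. Of 7 mRNA comparisons, age and burn within each level, their difference and both averages were fitted in 1 model. Levels are TMM-scaled CPM over 12 libraries. TMM assumes that most genes do not differ, and the low members rest on few reads, which widens their intervals. DESeq2 1.42.0, RLE factors, library size alone, no filter, only the groups compared, a replicate block and each library left out were alternatives. The fits were tested on simulated data. Animals are the replicates.

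The members and the lists (16 lists, 143 genes) were chosen with earlier results of these data known. All members are named, as are up to 4 called genes of a list by largest change (without a call, the 2 with the highest level), the 8 genes most like the members and the called miRNAs; lists of other cell types are given by counts and sums. Values of some single genes that this rule would name are not reported here. Mir-204 and the repair genes Gap43, Bdnf and Ngfr under burn were named after their values were seen. Replicate numbers did not pair samples: correlations of same-numbered deviations ran from −0.17 to 0.13 in mRNA and from −0.17 to 0.26 in miRNA. Symbols and exons are from Gencode M21, which paired 55141 of 55401 identifiers with a symbol. Samples were not split by batch, since the labels give none.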

Additional observations from a re-analysis of the deposited data

How the results depend on the processing

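With all 12 libraries, 0 members were called by age in sham mice, 0 in burned mice and 3 over both treatments, against 2, 2 and 5 with 11. DESeq2 on 12 libraries called 1, 1 and 3. Library size alone left 1 in sham, and without the filter on low counts 5 were called in burned mice. Leaving out 1 library at a time gave 0 to 2 in sham, 0 to 3 in burn and 2 to 5 over both treatments. The burn counts of 0 held in every alternative run. A replicate block gave the same counts, with Pmp22 at 0.65 in sham and 0.93 in burn on the log2 scale, and it changed no other call, although the numbers do not pair the samples. The cause of these shifts was not tested, beyond the fewer samples in each fit.

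Values that changed sign, all uncalled but the last, were as follows in log2 fold changes. Leaving out 1 library gave a range of −0.68 to 0.15 for Prx by age in sham, −0.20 to 0.94 for Mbp by age in burn, −0.14 to 1.35 for Ncmap and −0.11 to 0.23 for Mbp in burned adults, and −0.12 to 0.72 for Egr2, −0.89 to 0.25 for Mbp and −0.054 to 0.51 for Pmp22 in the difference of burn effects. For burn in young mice it gave −0.55 to 0.14 for Egr2, −0.83 to 0.31 for Mbp, −1.23 to 0.31 for Ncmap, −0.19 to 0.37 for Pmp22 and −0.34 to 0.18 for S100b. With 12 libraries Pmp22 was at −0.11 for burn in young mice by edgeR and DESeq2, and Egr2 at −0.0077 in the difference. Library size alone put the median of all genes at −0.13 by age in sham, 0.16 for burn in young mice and 0.18 in the difference, and gave 0.10 for S100b in burned young mice and 0.0059 for mir-204 by age in sham, which was called at −0.51 with TMM. Of the values of single genes and entries, 745 kept their direction and side of the threshold, 39 lost a call, 9 gained one and 24 changed sign. The depth limits Mag and Sox10, at 0 to 11 reads per library.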
